A study of Mus musculus with 4 samples.

Results

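This report describes 9 transcription factor genes that mark neurons and regions of the hippocampus and cortex: Prox1, Zbtb20, Tbr1, Bcl11b, Fezf2, Neurod2, Neurod6, Lhx2 and Emx2. They were chosen by name, and all 9 were found among the 21924 protein-coding genes of the annotation. Open chromatin was measured by ATAC-seq, in which Tn5 transposase inserts sequencing adapters where DNA is accessible, in nuclei from hippocampi dissected at postnatal day 0 (P0). There were 2 cKO and 2 Ctrl samples, and a list of peaks from each, called Ctrl 1, Ctrl 2, cKO 1 and cKO 2 by their replicate numbers. cKO mice carried the genotype Kdm2bEmx1-delta-CxxC, in which Emx1-Cre, active in progenitors of the dorsal telencephalon, removes the exon for the CxxC zinc finger of KDM2B. The rest of KDM2B is not targeted, and cells outside the Emx1 lineage, such as interneurons, microglia and vessels, keep the intact allele. Ctrl mice were Kdm2bfl/+ or Kdm2bfl/fl, and the labels do not say which library had which genotype. The source field names neural progenitor cells, whereas titles and protocol name hippocampus, which the text follows. The labels do not say whether samples came from separate or pooled animals, so p-values measure only the spread between these samples.

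PROX1 specifies granule cells of the dentate gyrus, and ZBTB20 specifies hippocampal rather than neocortical projection neurons. TBR1, BCL11B (also called CTIP2) and FEZF2 act in postmitotic glutamatergic neurons of deep cortical layers, and BCL11B also marks hippocampal neurons. NEUROD2 and NEUROD6 are basic helix-loop-helix factors of differentiating glutamatergic neurons. LHX2 and EMX2 are homeodomain factors that pattern the dorsal telencephalon and are already active in progenitors. The CxxC zinc finger binds unmethylated CG dinucleotides and brings KDM2B, with a variant Polycomb repressive complex 1, to CpG islands, which are common at promoters of developmental regulators. The comparison asks whether accessibility at these 9 genes differed between hippocampi with and without that domain.

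The lists differed in size. Ctrl 1 held 46389 peaks, cKO 2 held 44535, cKO 1 held 21404 and Ctrl 2 held 7037. The estimated number of fragments ran in the reverse order. It was 14.6 M (M, 1000000 fragments) in Ctrl 1, 17.1 M in cKO 2, 19.4 M in cKO 1 and 29.6 M in Ctrl 2. In Ctrl 2, 60.6% of the peaks lay mostly in masked repeats, against 5.37% to 14.7% in the other lists, and the median scaled depth was 5.77 against 8.68 to 11.1. Scaled depth is the number of fragments over the summit of a peak divided by the mean depth of that library over the genome. Of the protein-coding genes, 59.6% had a promoter peak in Ctrl 1, 8.82% in Ctrl 2, 41.6% in cKO 1 and 57.5% in cKO 2. Ctrl 2 therefore stood apart before any gene was considered, so differences between genotypes are also given against Ctrl 1 alone. In these bulk samples, fewer nuclei of a type and less open chromatin per nucleus cannot be told apart. Promoter peaks at 6 marker genes of neurons numbered 6, 0, 4 and 6 in Ctrl 1, Ctrl 2, cKO 1 and cKO 2, and those at 6 progenitor markers 6, 0, 3 and 6. None of 6 microglial, 5 blood or 4 non-neural tissue genes had one in any list. Interneuron genes had 5, 0, 1 and 2 of 8, endothelial genes 1, 0, 1 and 0 of 5, oligodendrocyte lineage genes 2, 0, 0 and 1 of 4 and thalamic genes 2, 0, 1 and 2 of 3. Choroid plexus and ependyma genes had 2, 0, 2 and 2 of 5. Ctrl 2 had no peak at any of the 24 marker genes with a peak in some list, so these were compared with Ctrl 1 alone. Both cKO percentiles (as defined below) lay above Ctrl 1 in 6, beside 24.1% of the 13522 genes so tested. These were Map2 and Stmn2 of neurons, Sox2 of progenitors, Lhx9 of thalamus and Ttr and Foxj1 of choroid plexus and ependyma. Both cKO percentiles lay below Ctrl 1 in 5, beside 36.7% of those tested. These were Snap25 of neurons, Dlx1, Dlx5 and Dlx6 of interneurons and Olig1 of the oligodendrocyte lineage. All but Snap25 had no peak in either cKO list. In Ctrl 1, Dlx5 (41.0), Dlx6 (41.4) and Olig1 (44.6) stood near 40.4, the lowest percentile of a gene with a peak there. Dlx2 stood at 40.6, 0 and 45.5 and Gad1 at 51.4, 61.5 and 45.7 in Ctrl 1, cKO 1 and cKO 2. The part of these cell types in the results was not tested.

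Sequences are shown first for the places the results turn on. They were read from GRCm38 (mm10) on the strand of the gene, 5′ to 3′, 200 bases each. Capitals mark matches on either strand to any of 5 motifs. CAGATG is an E-box of the kind bound by NEUROD factors. The core of many homeodomain sites is TAATTA. For T-box factors such as TBR1 the half-site searched was GGTGTGA, which many of them bind. The sequence of the box for SP factors, called a GC box, reads GGGCGG. The box named after its letters, bound by nuclear factor Y, reads CCAAT. Overlapping matches are counted separately. A match is a description of letters and not a binding site.

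The first pair are the 2 regions of these loci found in every list. One is the peak at the 5′ end of Zbtb20 (chr16:42875507-42875706, plus strand), with 1 GC box and 3 CCAAT boxes. The other lies downstream of Fezf2 (chr14:12337861-12338060, minus strand), with 1 CCAAT box.
Zbtb20 5′ peak: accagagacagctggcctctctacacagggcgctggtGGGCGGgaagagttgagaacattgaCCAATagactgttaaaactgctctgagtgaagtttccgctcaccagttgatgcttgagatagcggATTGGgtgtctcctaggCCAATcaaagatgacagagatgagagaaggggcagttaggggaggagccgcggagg
Fezf2 downstream: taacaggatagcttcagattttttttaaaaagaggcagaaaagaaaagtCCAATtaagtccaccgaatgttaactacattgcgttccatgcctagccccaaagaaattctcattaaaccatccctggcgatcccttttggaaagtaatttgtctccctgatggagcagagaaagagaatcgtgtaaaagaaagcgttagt

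The next show promoters that differ in their lists, as the stretch just upstream of a start site. Tbr1 (chr2:61804253-61804452, plus strand) had a peak in 3 lists and 2 TAATTA matches near its start site. Neurod2 (chr11:98329649-98329848, minus strand) had a peak in 1 list and held 1 CAGATG, 2 GC boxes and 2 CCAAT boxes. Bcl11b (chr12:108003603-108003802, minus strand) had no promoter peak in any list and held 1 GC box.
Tbr1 upstream: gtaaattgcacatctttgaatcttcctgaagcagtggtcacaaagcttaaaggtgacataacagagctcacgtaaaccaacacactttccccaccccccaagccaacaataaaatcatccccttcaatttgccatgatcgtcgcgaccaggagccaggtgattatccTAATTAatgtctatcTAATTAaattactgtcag
Neurod2 upstream: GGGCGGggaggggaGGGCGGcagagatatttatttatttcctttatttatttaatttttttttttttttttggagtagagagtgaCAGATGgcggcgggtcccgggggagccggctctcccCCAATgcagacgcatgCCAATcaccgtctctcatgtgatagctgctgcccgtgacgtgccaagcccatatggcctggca
Bcl11b upstream: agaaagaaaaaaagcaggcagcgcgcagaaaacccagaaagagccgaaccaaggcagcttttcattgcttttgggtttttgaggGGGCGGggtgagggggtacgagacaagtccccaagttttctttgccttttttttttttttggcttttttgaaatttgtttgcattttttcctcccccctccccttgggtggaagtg

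The last is the best-ranked distal peak of the Neurod2 locus, 9595 bp upstream of the gene (chr11:98339143-98339342, minus strand). Distal peaks leave out those at promoters of other genes, some of which ranked higher in this locus. The stretch is shown because it held 3 TAATTA matches, 2 of them overlapping, and 1 CCAAT box.
Neurod2 distal: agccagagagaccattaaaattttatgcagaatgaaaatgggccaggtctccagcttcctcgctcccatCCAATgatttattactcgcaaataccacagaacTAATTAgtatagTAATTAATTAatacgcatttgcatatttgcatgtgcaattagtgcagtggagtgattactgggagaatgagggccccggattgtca

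A promoter peak was a peak whose summit lay within 2 kb of any GENCODE M21 start site of the gene. By this definition 7 of the 9 genes had a promoter peak in Ctrl 1, 1 in Ctrl 2, 6 in cKO 1 and 8 in cKO 2. The 3 larger lists thus held most of these promoters, and Ctrl 2 held that of Zbtb20 alone. The shares, 77.8%, 11.1%, 66.7% and 88.9%, stood beside 59.6%, 8.82%, 41.6% and 57.5% of all protein-coding genes. The cKO mean exceeded the Ctrl mean by 3 genes, and without Ctrl 2 the difference was 0.

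Zbtb20 had the deepest promoter peak of the 9 genes in each list. It covered 218 fragments in Ctrl 1, 52 in Ctrl 2, 123 in cKO 1 and 251 in cKO 2, which gave scaled depths of 134, 15.0, 59.3 and 139. It ranked 201, 563, 102 and 68 by p-value in these lists. Ctrl 1 and cKO 2 were alike within their exact Poisson 95% intervals (117 to 153 and 122 to 157), and the other libraries were lower. The intervals cover counting error only. The summit lay 269 to 303 bp upstream of the retained-intron transcript that starts at the 5′ end of the gene, and close to the start of the divergent long noncoding RNA 4932412D23Rik, so the peak is shared by both. That transcript is outside the basic GENCODE set. With the basic set, the promoter peak of Zbtb20 was a weak one inside the gene, with scaled depths of 8.01 in Ctrl 1 and 8.86 in cKO 2 and no peak in the other lists. Under that set Ctrl 2 held none of the 9 promoters, and the counts were 7, 0, 5 and 8. The full set was taken after this peak had been seen.

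Prox1 had a promoter peak of 37 fragments in Ctrl 1 and 33 in cKO 2, scaled depths 22.8 and 18.3, and none in the other lists. The summit lay 1 to 26 bp from an annotated start of the gene, with the antisense gene Prox1os starting 358 to 385 bp away. Presence of the peak therefore split each genotype. Among the deep-layer factors, Tbr1 had 40 fragments in Ctrl 1, 23 in cKO 1 and 43 in cKO 2, scaled depths 24.7, 11.1 and 23.8. Fezf2 had 28, 19 and 23 fragments in the same lists, scaled depths 17.3, 9.16 and 12.7. For both genes cKO 1 was the lowest of the 3 lists with a peak. Bcl11b had no summit within 2 kb of its start sites in any list, and the nearest peak lay 2852 bp upstream in Ctrl 1 and 2866 bp upstream in cKO 2, with 22 fragments in each.

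The pair of neurogenic helix-loop-helix genes differed. Neurod6 had 40, 21 and 34 fragments in Ctrl 1, cKO 1 and cKO 2, scaled depths 24.7, 10.1 and 18.8. Its paralog Neurod2 had a promoter peak only in cKO 2, with 29 fragments and a scaled depth of 16.1. No Neurod2 promoter peak passed the threshold in the other 3 lists, so presence of a peak split the cKO samples rather than the genotypes. The weakest peaks of those lists at any place had scaled depths of 3.46 to 4.34. Peaks were called against local background, so this is not the limit at the Neurod2 promoter. In Ctrl 1 a peak of scaled depth 14.8 in the Lhx2 locus ranked only 38174 of 46389.

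The patterning factors had the deepest promoter peaks after Zbtb20. Lhx2 had 78, 38 and 74 fragments in Ctrl 1, cKO 1 and cKO 2, scaled depths 48.1, 18.3 and 41.0, with the summit 257 to 303 bp downstream of an annotated start inside the gene. Emx2 had 50, 30 and 48 fragments, scaled depths 30.8, 14.5 and 26.6, with the summit 32 to 69 bp from the start of the antisense gene Emx2os. A second Emx2 peak, 834 to 887 bp upstream of the gene, had 39 fragments in Ctrl 1 and 46 in cKO 2. Ctrl 2 had no promoter peak at either gene.

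**Figure D1:**
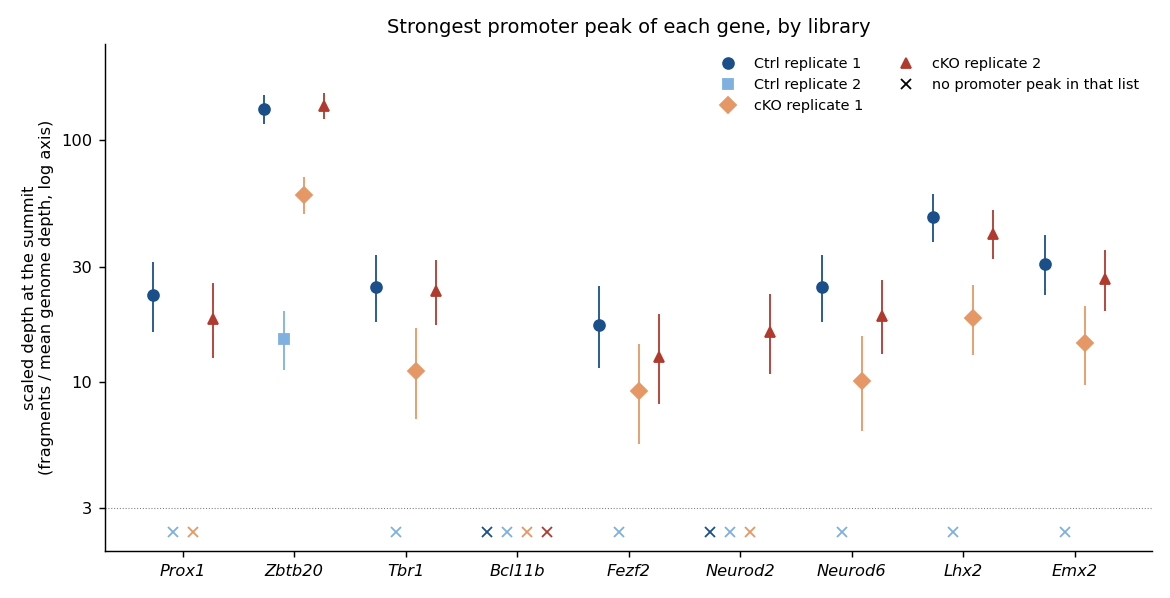
Scaled depth (fragments over mean genome depth, log axis) at the strongest promoter peak of each gene, by library, with exact Poisson 95% intervals for counting error. Crosses under the dotted line stand for no promoter peak; Zbtb20 is the one gene with a peak in all 4 lists, and Bcl11b has none.

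Since a list of 46389 peaks and one of 7037 do not share a scale, each promoter was also placed within its own library. The promoter percentile of a gene gives how many percent of protein-coding genes had, in that library, no promoter peak or only a weaker one by p-value, and it is 0 for a gene without a peak. A gene with a peak could not fall below 40.4 in Ctrl 1, 91.2 in Ctrl 2, 58.4 in cKO 1 and 42.5 in cKO 2, the shares of genes without one.

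Zbtb20 stood at percentiles 99.2, 99.9, 99.9 and 99.9 in Ctrl 1, Ctrl 2, cKO 1 and cKO 2, a difference of 0.322 points between the means of cKO and Ctrl (exact permutation p = 1). With the basic set Zbtb20 stood at 43.5, 0, 0 and 51.7, and the cKO values no longer both lay above Ctrl 1. Lhx2 stood at 82.7, 0, 86.1 and 85.5, with a Ctrl mean of 41.4 ± 58.5 and a cKO mean of 85.8 ± 0.410 (SD, n = 2 each; exact permutation p = 0.33). The difference of 44.4 points rested on the 0 of Ctrl 2, since it was 3.03 without Ctrl 2 and 85.8 without Ctrl 1. Emx2 stood at 68.7, 0, 76.4 and 69.3, and Tbr1 at 65.7, 0, 72.9 and 67.5 (exact permutation p = 0.33 for each). In these 3 genes both cKO values lay above both Ctrl values. Neurod6, at 72.2, 0, 77.9 and 69.9, and Fezf2, at 52.4, 0, 67.1 and 49.3, overlapped between genotypes (exact permutation p = 0.67 for each). Prox1, at 64.8, 0, 0 and 62.5, differed by -1.14 points, and Neurod2, at 0, 0, 0 and 61.9, by 31.0 points (exact permutation p = 1 for each). Bcl11b was at 0 throughout and was not tested. Without Ctrl 2 the differences came to 4.50 points for Tbr1, 5.79 for Fezf2, 1.67 for Neurod6, 4.13 for Emx2, 31.0 for Neurod2, 0.655 for Zbtb20 and -33.5 for Prox1.

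Thus 3 of the 8 genes tested had both cKO libraries above both Ctrl libraries, against 20.7% of all 13551 genes tested, and 0 had both below, against 2.89%, which could occur only for Zbtb20 since Ctrl 2 was at 0 for the rest. The count above changed with the processing. Ranked by fold enrichment in place of p-value, Tbr1 (58.0 in Ctrl 1 and 57.1 in cKO 2) overlapped and 2 genes were left, beside 21%. With any overlap of a peak with the promoter, Zbtb20 (at most 99.854 in Ctrl and at least 99.859 in cKO) joined them to make 4, beside 20.6%. With lists of equal size 1 gene (Lhx2) of the 2 with a promoter peak was above, beside 17.7%. The two-sided exact permutation test over the 6 assignments of 2 against 2 cannot go below p = 0.33, and no gene passed it (adjusted p = 1 for all 8, Benjamini-Hochberg over all genes tested). Leaving out Ctrl 2, both cKO libraries lay above Ctrl 1 for 4 genes (Zbtb20, Tbr1, Lhx2 and Emx2) and below it for Prox1 alone. Over the 13522 genes so tested, the shares were 24.1% above and 36.7% below. The median percentile of the 9 genes was 65.7, 0, 72.9 and 67.5, beside 50.0, 0, 0 and 49.6 over all protein-coding genes. Over the 13551 genes tested, which unlike the 9 leave out every gene without a peak in any list, it was 69.1, 0, 69.1 and 69.1.

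**Figure D2:**
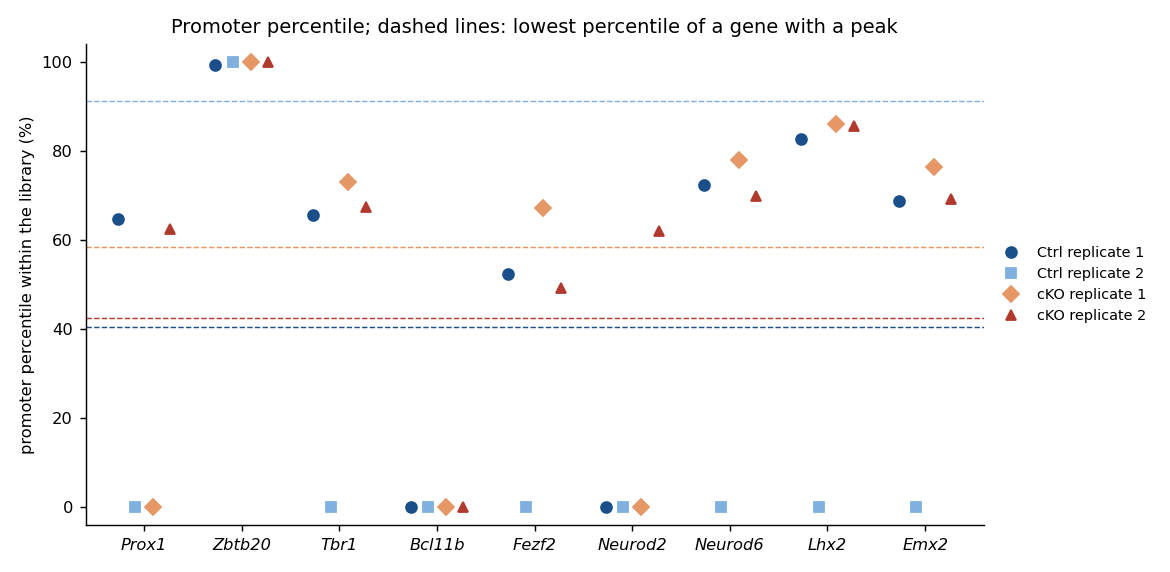
Promoter percentile (%) of each gene within each library, with 0 for no promoter peak and dashed lines at the lowest percentile a gene with a peak can have in that library. Of the 9 genes, Zbtb20 lies near the top by p-value in every library, and Ctrl 2 is at 0 for the rest.

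Scaled depths were then compared with those of Ctrl 1. At the 6 genes with a promoter peak in both Ctrl 1 and cKO 1, the scaled depth was lower in cKO 1. The log2 ratios ran from -1.39 (Lhx2) to -0.91 (Fezf2), with a median of -1.17. The percentiles of all 6 were higher in cKO 1, as were those of 56.1% of the 9070 genes with a peak in both, and the lowest percentile possible was itself higher there (58.4 against 40.4), which fixed the rise of Fezf2 from 52.4. Over these 9070 genes the median log2 ratio was -1.43, so all 6 lay above the median of all genes. In cKO 2 the 7 genes with a peak in both ranged from -0.44 (Fezf2) to 0.05 (Zbtb20), with a median of -0.23 beside -0.24 over 12168 genes. Zbtb20 was the only one of the 7 with a higher scaled depth in cKO 2. Scaled depth was therefore lower in cKO 1 and close to Ctrl 1 in cKO 2, in these genes as in the genome. The 2 cKO libraries differed from each other by a median log2 of 1.17 over 9053 genes.

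**Figure D3:**
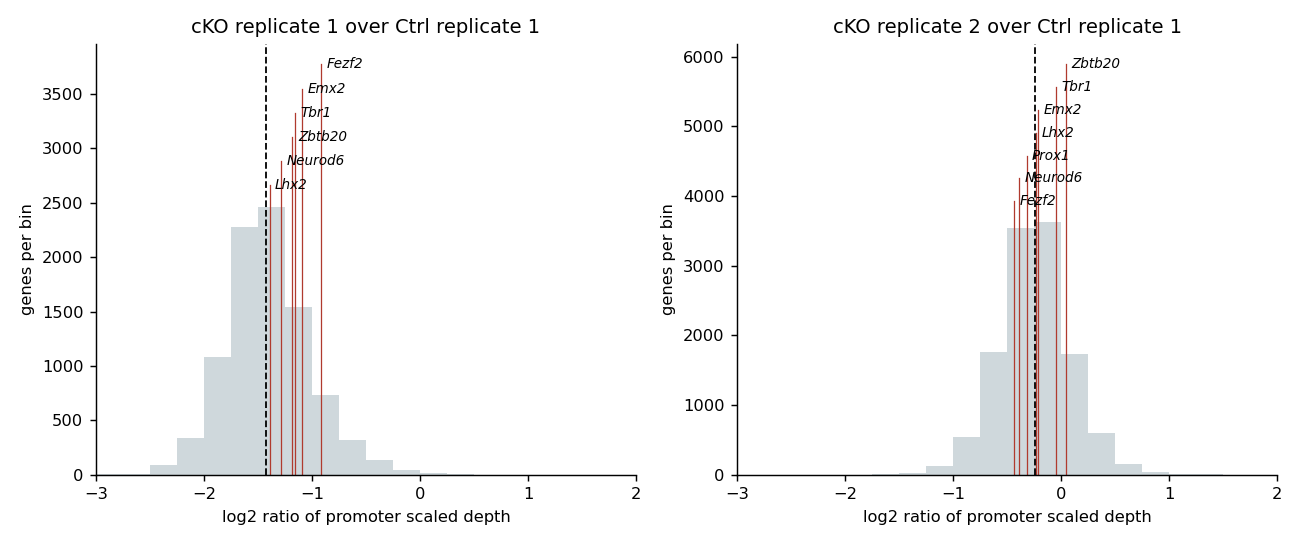
Histograms of the log2 ratio of promoter scaled depth over Ctrl 1, for all genes with a promoter peak in both libraries, with the named genes as red lines and the median of all genes dashed. In cKO 1 all 6 genes lie right of the median of -1.43 and left of 0, and in cKO 2 the 7 genes surround the median of -0.24.

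Peaks were next counted across each gene and 50 kb on either side. The 9 loci held 73 peaks in Ctrl 1, 3 in Ctrl 2, 34 in cKO 1 and 77 in cKO 2. Per 10000 peaks of the list this came to 15.7, 4.26, 15.9 and 17.3, so the 3 larger lists gave these loci a like share. The cKO mean exceeded the Ctrl mean by 17.5 peaks, and without Ctrl 2 it was lower by 17.5 (a difference of -17.5). With the 3 larger lists cut to equal size, Ctrl 1 held 34 peaks, cKO 1 34 and cKO 2 42, a difference of 4. No locus had more peaks in both cKO lists than in both Ctrl lists, beside 1.12% of genes, or fewer, beside 0.521%, and fewer was possible only for the 2 loci with a peak in Ctrl 2. Against Ctrl 1 alone, none had more in both cKO lists, beside 1.84%, and 2 (Lhx2 and Emx2) had fewer, beside 33.5%. The median density was 3.87, 0, 1.87 and 4.67 peaks per 100 kb, against 2.47, 0, 0.983 and 2.30 over all genes.

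Zbtb20, whose gene spans 766722 bp, held 31, 2, 16 and 31 of these peaks. Most lay in its introns, 22, 1, 12 and 20 of them. The deepest intronic peak of Ctrl 1 and cKO 1 stood 45797 bp into the gene, with 69 and 40 fragments, and had 81 in cKO 2. The deepest of cKO 2 stood 254890 bp into the gene, with 87 fragments, against 40 in Ctrl 1 and 32 in cKO 1. The latter, the best-ranked distal peak of the locus (chr16:43130034-43131079), had scaled depths of 24.7, 15.4 and 48.2. It was chosen by its best rank in any list, 1364 in cKO 2, so its greater depth there follows from the choice. The peak 45797 bp into the gene had scaled depths of 42.5, 19.3 and 44.8 in Ctrl 1, cKO 1 and cKO 2. Over the 27 regions of the locus in both Ctrl 1 and cKO 2, 20 (74.1%) had a higher scaled depth in cKO 2. The share was 39.2% over all 34487 such regions (median log2 ratio 0.12 beside -0.11). Over the 9 loci together it was 32 of 59 (54.2%, median 0.07). Elsewhere it was 3 of 6 at Tbr1, 3 of 4 at Emx2, 2 of 5 at Fezf2 and 2 of 4 at Neurod2. Neurod6 had 1 of 4, Lhx2 1 of 3, Prox1 0 of 2 and Bcl11b 0 of 4. Over the 15 Zbtb20 regions shared by Ctrl 1 and cKO 1, none was higher in cKO 1, beside 7.73% of all 18884 (median -0.94 beside -1.15).

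**Figure D4:**
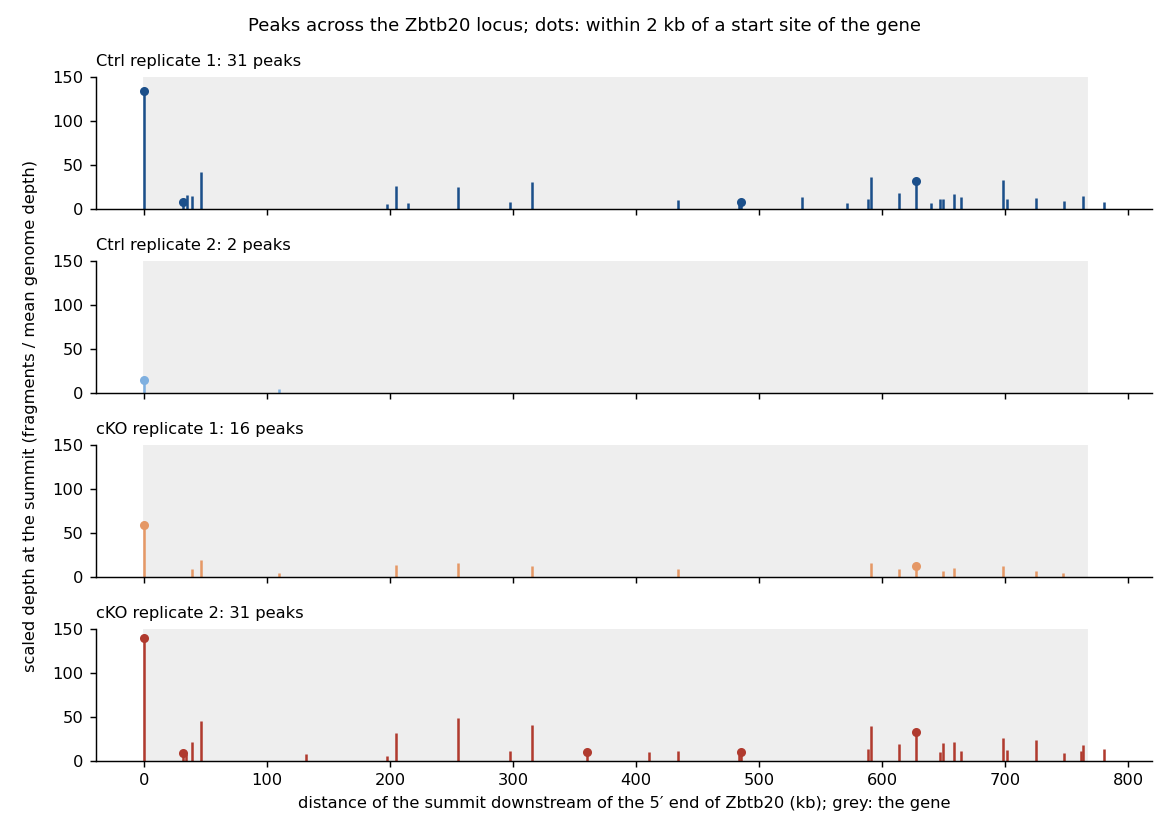
Peaks across the Zbtb20 locus in each library, by distance (kb) of the summit from the 5′ end of the gene and scaled depth (fragments over mean genome depth), with dots for peaks within 2 kb of a start site of the gene. The 5′ peak is the tallest in all 4 libraries, and Ctrl 2 has 1 further peak.

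At the other loci the counts were small. Best-ranked distal peaks, which leave out peaks at promoters of other genes, were chosen by their best rank in any list. Their depths therefore favour the list that gave that rank. Tbr1 held 6, 0, 6 and 9 peaks, among them an intergenic peak 31227 bp past its nearest start site (chr2:61837264-61837678) with 37, 17 and 32 fragments in the 3 larger lists. Fezf2 held 5, 1, 3 and 6. Its downstream region (chr14:12337519-12338652), intergenic and 7883 bp from the nearest start site of the gene, covered 107, 22, 38 and 95 fragments, scaled depths 65.96, 6.35, 18.3 and 52.6, and was deeper than the Fezf2 promoter in the 3 lists that held both. Bcl11b held 6, 0, 0 and 6 peaks, and its 4 regions shared by Ctrl 1 and cKO 2 all had a lower scaled depth in the latter, beside 60.8% of all such regions (median log2 ratio -0.71 beside -0.11). The best-ranked, in an intron (chr12:107952114-107952572), had 28 and 12 fragments. Prox1 held 4, 0, 0 and 4 peaks.

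Neurod2 held 6, 0, 3 and 7 peaks, some of them at promoters of the neighbouring genes Stard3 and Gm20644. Of the 3 in cKO 1, 2 lay at these promoters and 1 inside Stard3. The best-ranked distal peak of the Neurod2 locus, whose sequence is shown above, had 25 fragments in Ctrl 1 and 36 in cKO 2. Neurod6 held 4, 0, 3 and 5 peaks, with the best-ranked distal one 9005 bp upstream at 31, 21 and 31 fragments in the 3 larger lists. Lhx2 held 5, 0, 1 and 4, with a distal peak 5500 bp upstream of 14 fragments in Ctrl 1 and 24 in cKO 2. Emx2 held 6, 0, 2 and 5, with a distal peak 40163 bp upstream of 21, 12 and 28 fragments in the 3 larger lists. Prox1 had its best-ranked distal peak 49856 bp upstream, in cKO 2 alone, with 23 fragments.

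**Figure D5:**
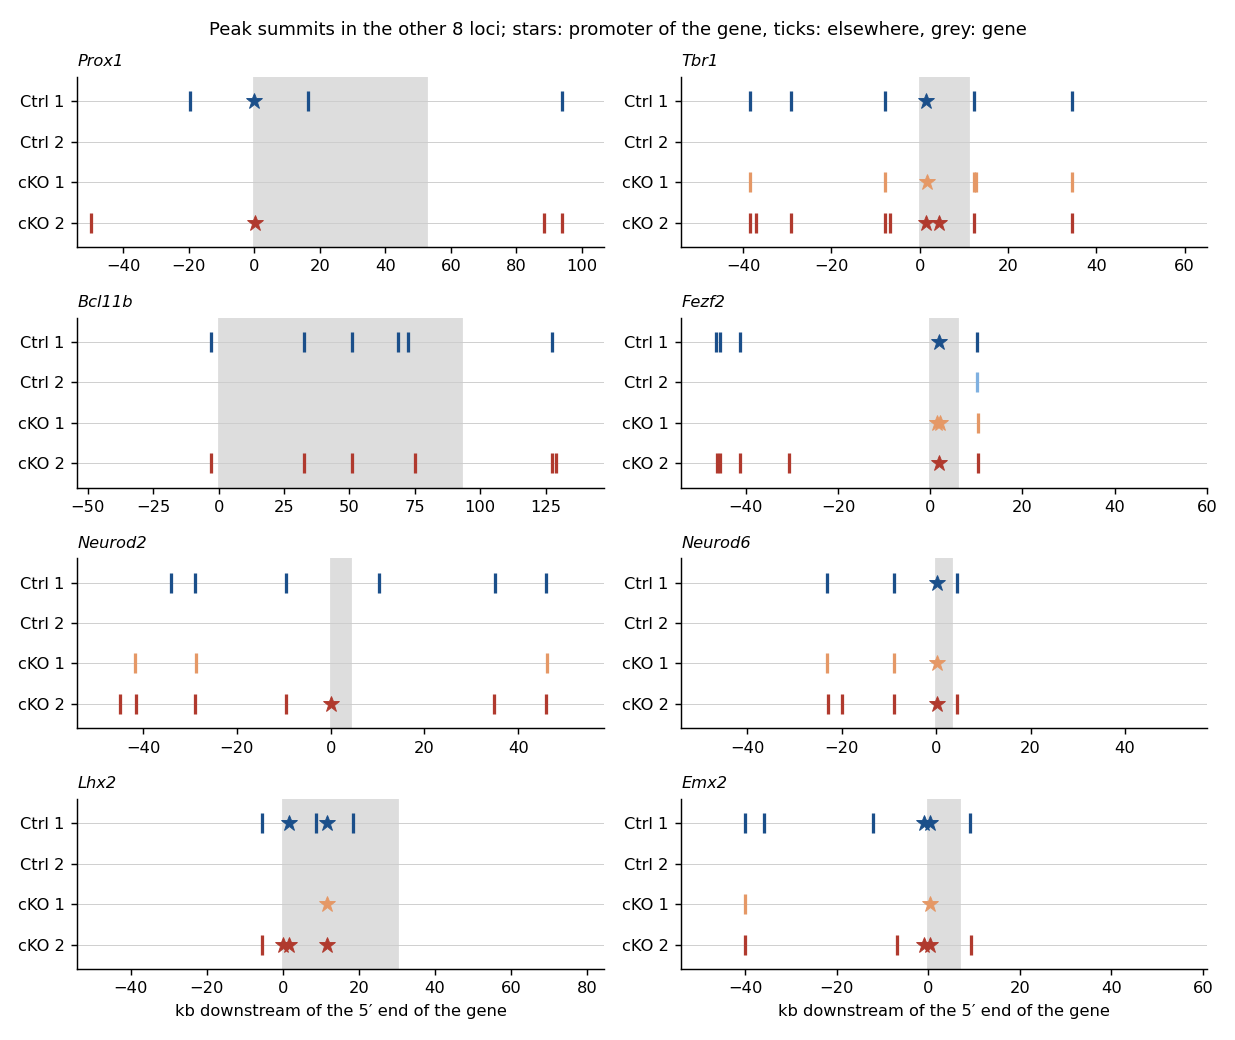
Summits in the other 8 loci by library, in kb downstream of the 5′ end of each gene, with stars for promoter peaks of the gene, ticks for other peaks and the gene in grey. Ctrl 2 has a single peak, downstream of Fezf2.

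Overlapping peaks merged into 93 regions in the 9 loci, of 58652 in all. Of the 93, 29 were held by Ctrl 1 and cKO 2 only (31.2%, against 27.1% of all regions), and 28 by these and cKO 1 (30.1% against 25.9%). Both cKO lists and neither Ctrl list held 1 region, beside 0.692% of all regions. It lies in the Neurod2 locus but inside Stard3 (chr11:98371007-98371774), 41480 bp upstream of Neurod2, with 15 fragments in cKO 1 and 22 in cKO 2. Both Ctrl lists and neither cKO list held 0, beside 0.305%. Against Ctrl 1 alone, both cKO lists held 1 region that Ctrl 1 did not, beside 1.62%, and Ctrl 1 held 14 that neither cKO list did, beside 19.6%. With each list cut to its 7037 best peaks, both cKO lists alone held 2 of the 16 regions then left in the loci, beside 3.26% of all 14178 regions. They lay in Zbtb20 introns 204756 and 254890 bp into the gene, and both were peaks of Ctrl 1 below that rank.

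The promoters also differed in base composition, which the choice of genes did not use. In 500 bp around the strongest summit, 4 of the 8 genes with a promoter peak (Prox1, Fezf2, Lhx2 and Emx2) were CpG-rich, with at least 55% GC and an observed over expected CG ratio of at least 0.65, beside 68.7% of 13551 genes. Lhx2 had 68.2% GC and a ratio of 0.820. Neurod6, at 43.6% and 0.211, and Tbr1, at 44.8% and 0.360, were poor in both. Neurod6 had fewer CG dinucleotides than expected to a degree that 3.79% of genes fell below. Zbtb20, at 54.6% and 0.645, lay just under both thresholds, and Neurod2, at 57.8% and 0.629, under that of the ratio alone. These calls depend on where the window is centred. In 500 bp around the 5′ start site of Zbtb20 the values were 65.2% and 0.957, above both thresholds. Around the start site nearest to the Lhx2 summit they were 61.8% and 0.567, under that of the ratio.

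Motif letters were counted in 300 bp around the same summits. TAATTA occurred at 3 of the 8 promoters (Tbr1, Fezf2 and Emx2), against 2.18% of all promoter windows, and CAGATG at 2 (Neurod2 and Neurod6), against 11.02%. CCAAT occurred at 6, against 38.8%, and GGGCGG at 2 (Zbtb20 and Lhx2), against 64.3%. GGTGTGA occurred at none, against 2.91%. At the 9 best distal peaks, TAATTA occurred at 2 (Prox1 and Neurod2) beside 14.5% of all distal windows, CAGATG at 1 beside 33.2%, CCAAT at 5 beside 44.6%, GGGCGG at 1 beside 7.33% and GGTGTGA at 0 beside 4.10%.

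Of 30 other regulators of forebrain neurons fixed as a comparison list, 30, 3, 24 and 30 had a promoter peak in Ctrl 1, Ctrl 2, cKO 1 and cKO 2. Both cKO percentiles lay above both Ctrl percentiles in 10 of 30 and below in 0, beside the same 20.7% and 2.89% of tested genes. The 10 were Neurod1, Neurog2, Satb1, Cux2, Pou3f3, Foxp2, Nfix, Meis2, Nr2f1 and Dmrta2. Ctrl 2 was at 0 for 27 of the 30, which could not lie below it. Against Ctrl 1 alone, both cKO percentiles lay above in 13, which add Tle4, Nfia and Zfpm2, beside 24.1%, and below in 5 (Cux1, Sox5, Foxp1, Myt1l and Nr2f2), beside 36.7%. Tle4, a transcriptional co-repressor of deep-layer neurons, stood nearest to Zbtb20, at 98.5, 99.8, 99.4 and 98.8.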

How the data were processed

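Groups and replicate numbers came from sample titles. The methods of the study state Cutadapt for trimming and Bowtie2 with mm10 for alignment. The authors then removed blacklisted regions, mitochondrial reads and duplicates, shifted alignments for Tn5 and called peaks with MACS2 2.2.7.1. The parameters they give name no control, and each library has its own list. The short reads left by trimming may place less well in repeats, which was not tested. The deposited lists give a score (not used), the authors' fold enrichment over local background and the authors' −log10 p-value and −log10 q-value. GENCODE M21 and the GRCm38 sequence share the build of the lists.

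Whole fragment depths at summits were recovered from the deposited fold and −log10 p-value, within 0.01 for 99.9858% to 100% of peaks of a list. The lowest local background of a list was taken as its mean depth. Promoter peaks had a summit within 2 kb of a start site of any transcript, and loci ran 50 kb past each gene. Percentiles were compared between genotypes by exact permutation of the libraries (two-sided), with p adjusted over all genes tested by Benjamini-Hochberg. The scripts were tested on simulated data. Python 3.11.15, NumPy 2.4.6, SciPy 1.17.1, pandas 2.3.3, pysam 0.24.0 and Matplotlib 3.10.9 were used.

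The 9 genes, the comparison list and the motifs were chosen with earlier results of these data known. Named were all 9 genes, their strongest promoter and best-ranked distal peaks, regions held by both lists of 1 genotype, and listed regulators at the extremes or not overlapping. The alternatives were 1 kb promoters, any overlap, 10 and 100 kb flanks, a −log10 q-value of at least 5, lists cut to equal size, repeats left out, other ranks, the replicate block, the basic transcript set and each library left out. The basic transcript set, the removal of peaks at promoters of other genes and the calls against Ctrl replicate 1 alone for locus peaks, regions, marker genes and the comparison list were added after seeing the data.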

Additional observations from a re-analysis of the deposited data

How the results depend on the processing

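Leaving out each library in turn moved the difference in promoter percentile of Prox1 from -33.5 (without Ctrl replicate 2) to 31.2 (without Ctrl replicate 1), and without cKO replicate 1 it was 30.1. Without Ctrl replicate 1 it rose to 70.2 for Tbr1, 58.2 for Fezf2, 73.9 for Neurod6 and 72.8 for Emx2. That of Neurod2 was 0 without cKO replicate 2 and 61.9 without cKO replicate 1. That of Zbtb20 ran from -0.0114 (without Ctrl replicate 1) to 0.655 (without Ctrl replicate 2). The scaled depth of its promoter differed by 24.4 with all libraries and by -35.3 (without Ctrl replicate 2) to 84.1 (without Ctrl replicate 1). The number of genes with a promoter peak differed by 0 (without Ctrl replicate 2) to 6 (without Ctrl replicate 1), and peaks in the 9 loci by -17.5 (without Ctrl replicate 2) to 52.5 (without Ctrl replicate 1), with -4 without cKO replicate 2. With lists of equal size, 2 regions in place of 1 were held by both lists of 1 genotype only (2 of 16, beside 3.26% of all regions for both cKO lists), and the difference was 0.5 genes and 4 peaks. There only Zbtb20 and Lhx2 kept a promoter peak, so the percentile differences of the other genes became 0. The basic transcript set gave a percentile difference of 4.11 for Zbtb20, and ranking by fold enrichment 5.37. Ranked by fold enrichment, Zbtb20 stood at 72.8, 99.9, 95.2 and 88.3 in Ctrl 1, Ctrl 2, cKO 1 and cKO 2. With the replicate block the differences stayed 3 genes and 17.5 peaks, with sign-flip p of at least 0.5, and replicate numbers pair no stated animals. Mid-ranks for genes without a peak moved the percentile differences to 21.6 for Lhx2, 15.7 for Emx2, 14.6 for Tbr1, 15.0 for Neurod6, 9.21 for Fezf2, 12.7 for Neurod2, -9.34 for Prox1 and -7.66 for Bcl11b. No other alternative turned the direction of a percentile difference. The smallest peaks of the lists, at any place, held 7 to 12 fragments. Peaks were called against local background, so the limit at a given promoter can be higher, and weaker promoters were not detectable.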
